A study of Rattus norvegicus with 12 samples.

Results

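A set of 10 genes of the endoplasmic reticulum (ER) was followed across all libraries of the study: Hspa5, Hsp90b1, Calr, Canx, Pdia4, Herpud1, Sdf2l1, Dnajb9, Xbp1 and Sel1l. They encode chaperones and folding factors of the ER, components of the pathway that clears misfolded proteins from it, and a transcription factor of its stress response. A gene was included when its symbol in the deposited tables equalled one of these names. All 10 genes were found in both tables, among 18616 genes in one and 19355 in the other.

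The study sequenced RNA from rat cells grown from bone marrow in a chondrogenic (cartilage-inducing) medium, and its title places it in work on fibrocartilage and microtubule stabilization. The labels give all 12 libraries as wild type and form 4 groups of 3. BMSC-C are control bone marrow mesenchymal stem cells, and BMSC-CT are such cells that received CTGF (connective tissue growth factor) for 1 week and then TGF-beta1. BF-C and BF-D carry the label of fibrotic BMSCs. BF-D received docetaxel, which binds and stabilizes microtubules, and BF-C are its controls. The series text calls them induced fibrotic chondrocytes. The labels give no strain, age, sex, dose or docetaxel time, nor the way in which the BF cells became fibrotic. They also do not say whether the 3 replicates of a group were separate cultures, so p-values measure only the spread between these libraries.

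Proteins that enter the secretory pathway fold in the ER with the help of lumenal chaperones, and cells that secrete much matrix depend on them. When unfolded proteins accumulate, 3 sensors in the ER membrane, IRE1, ATF6 and PERK, start the unfolded protein response. IRE1 splices the mRNA of Xbp1 into the form that encodes an active transcription factor, and ATF6 is cut in the Golgi to release another. Both factors are known to raise transcription of chaperone genes and of genes for ER-associated degradation, which returns misfolded proteins to the cytosol for destruction.

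Promoters of such genes are known for the ER stress element (ERSE), spelled CCAAT, then any 9 bases, then CCACG, which NF-Y and ATF6 or XBP1 contact, and for ERSE-II, spelled ATTGG, any 1 base, then CCACG. Both were searched on both strands of the RefSeq promoters (build GRCr8, 250 bases before to 50 after each start), and all 10 genes had a promoter there. The windows around each match are printed here to show where the letters lie in the 6 genes that hold them. The set was named for targets of IRE1 and ATF6. ATF6 and XBP1, whose mRNA IRE1 splices, are among the factors tied to these motifs. Matches among the 10 genes therefore follow from how they were chosen and are given as a description. The windows run 5′ to 3′ on the gene's strand, with the match in capitals. A match on the opposite strand reads as the reverse complement of the motif.
Hspa5, ERSE, chr3:38452953-38453011, plus strand: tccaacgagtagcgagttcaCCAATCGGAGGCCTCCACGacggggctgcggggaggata
Hsp90b1, ERSE, chr7:23012431-23012489, minus strand: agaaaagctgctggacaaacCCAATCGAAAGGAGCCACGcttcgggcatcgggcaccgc
Hsp90b1, ERSE on the opposite strand, chr7:23012327-23012385, minus strand: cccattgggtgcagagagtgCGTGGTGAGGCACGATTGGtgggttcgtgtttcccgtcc
Calr, ERSE on the opposite strand, chr19:40213117-40213173, plus strand: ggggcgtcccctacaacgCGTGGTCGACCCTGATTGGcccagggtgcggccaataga
Canx, ERSE, chr10:35158049-35158107, minus strand: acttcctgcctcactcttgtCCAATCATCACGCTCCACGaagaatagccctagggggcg
Xbp1, ERSE, chr14:84604538-84604596, plus strand: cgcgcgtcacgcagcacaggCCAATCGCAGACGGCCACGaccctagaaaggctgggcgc
Herpud1, ERSE-II, chr19:10614801-10614851, minus strand: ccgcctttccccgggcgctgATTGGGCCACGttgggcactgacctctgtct

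The exact ERSE letters were found in 22 of 33469 promoters (0.0657%), of 21 genes, and 5 of those are among the 10 genes. Relative to the start, the match ran from -43 to -25 in Hspa5, -65 to -47 in Xbp1, -230 to -212 in Canx and -232 to -214 in Calr. Hsp90b1 had a pair of matches, at -176 to -158 and at -72 to -54. ERSE-II was found in 17 promoters (0.0508%), with Herpud1 at -124 to -114. The promoters of Pdia4, Sdf2l1, Dnajb9 and Sel1l held neither string of letters, which says nothing about other spellings or other windows. A shorter motif of the same response, UPRE (TGACGTGG), was found in 199 promoters (0.595%) and in 0 of the 10.

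Libraries held 15580310 to 19870047 reads, and none of the 10 genes had fewer than 442 reads in any of them. One BMSC-CT library, replicate 3, stood apart: reads fell on 14621 genes, against 16100 to 17265 in the other BMSC libraries, and genes for ribosomal proteins took 14.97% of its reads, against 3.97% to 6.45%. Relative to the other BMSC-CT libraries its values also fell with gene length (Spearman -0.40 across 16818 genes, which are not replicates). BF-D replicate 2 showed the same kind of length trend (-0.36 across 17076 genes), with 2.78% of reads on ribosomal protein genes against 1.65% to 1.78% in the other BF libraries. Results that rest on these libraries are given with and without them.

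Markers of mesenchymal stromal cells were present in all groups, with 8 of 8 at 3 reads or more in every library. Their summed share of reads was 0.479% to 0.523% in BMSC-C and 0.561% to 1.19% in BMSC-CT, and 5.50% to 5.74% in BF-C and 4.29% to 5.29% in BF-D. Macrophage markers also reached 3 reads in every library for 8 of 8 in both BMSC groups, 6 in BF-C and 7 in BF-D. They summed to 0.779% to 0.933% of reads in BMSC-C, above the stromal sum there, and 0.945% to 1.27% in BMSC-CT. In BF-C they summed to 0.00401% to 0.00432%, and in BF-D to 0.00553% to 0.00618%. Markers of hyaline chondrocytes were nearly absent, with 7 of 8 listed in each table and a sum of at most 0.000943% of reads in any library. Among them, Matn3 and Col9a1 were at 0 reads in all BMSC-CT libraries.

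Treatment with CTGF and then TGF-beta1 was accompanied by higher levels of most of the 10 genes. Normalized counts, which are reads divided by a size factor for the library, were 2.53 to 10.4 times as high in BMSC-CT as in BMSC-C for the 7 genes that passed the test. These were Sdf2l1, Herpud1, Hspa5, Calr, Pdia4, Hsp90b1 and Dnajb9. Canx, Xbp1 and Sel1l did not pass, and 0 genes fell. The test was limma on log2(normalized count + 1) over 16818 genes, with a gene called at a Benjamini-Hochberg adjusted p under 0.05, and 7.7% of all tested genes rose and 10.9% fell by it. On the recovered reads edgeR and DESeq2 also called 7 of the 10 as higher, against 8.05% and 14.5% of all genes. The median log2 change of the 10 genes was 1.88, against -0.15 over all tested genes.

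**Figure D1:**
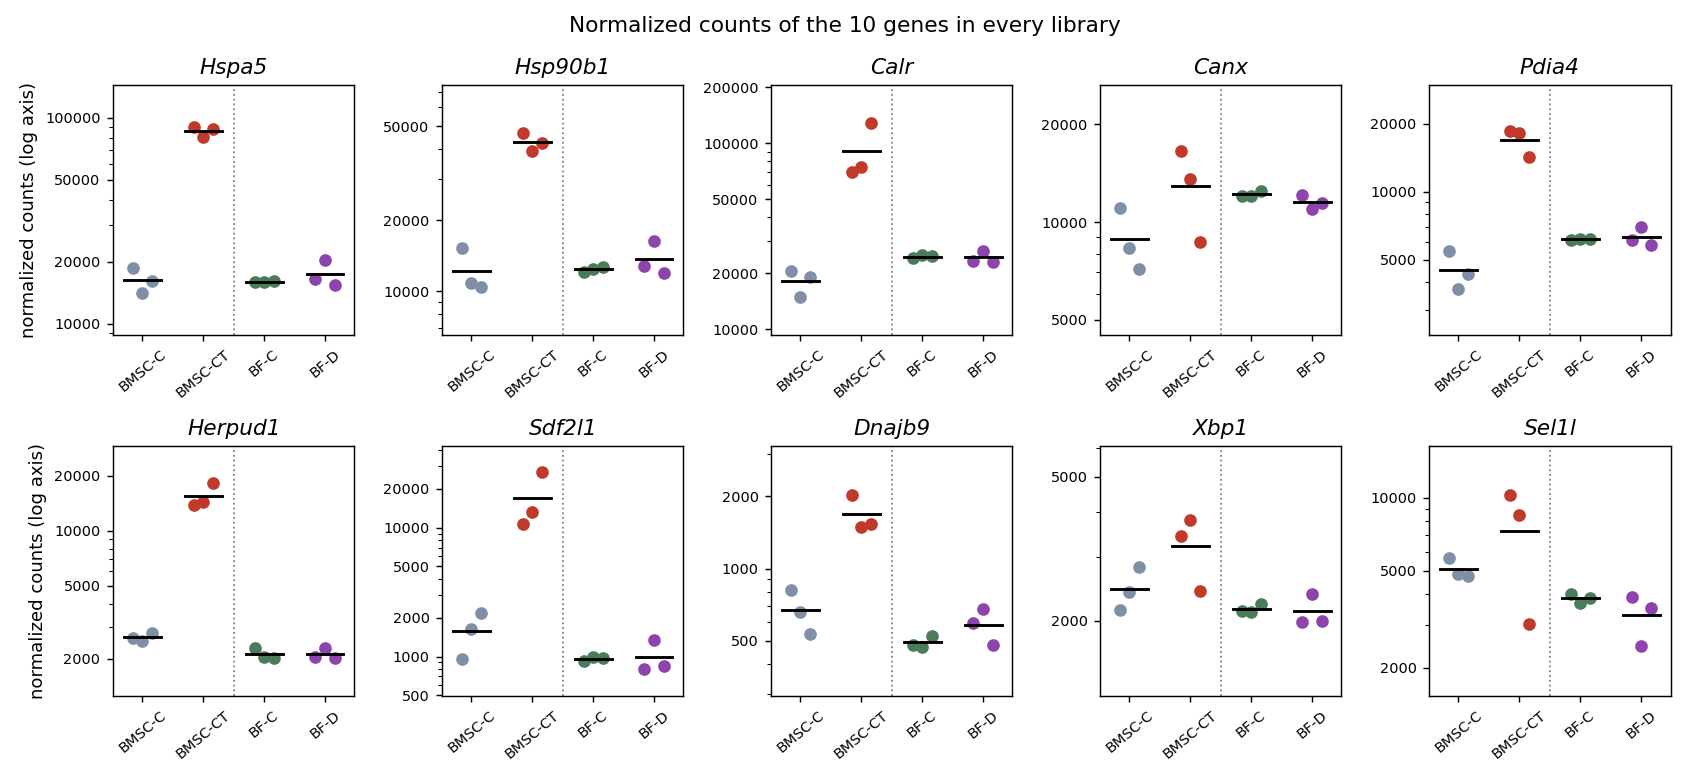
Normalized counts (vertical axis, log scale) of each of the 10 genes in each library, with 1 point per library, the 4 groups on the horizontal axis and a bar at the group mean. A dotted line separates the tables, which were normalized separately. For Hspa5 the BMSC-CT points sit between 81089 and 90436 and the BMSC-C points between 14103 and 18731, while for Sel1l the points of these groups overlap.

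Hspa5 encodes BiP, the Hsp70 chaperone of the ER lumen, which also holds the stress sensors inactive. It had 18731, 14103 and 16087 normalized counts in the BMSC-C libraries and 90436, 81089 and 88453 in the BMSC-CT libraries. Every treated library was above every control, and in normalized counts the treated libraries lay close together. As a share of all reads, Hspa5 spread more in BMSC-CT, at 0.565%, 0.469% and 0.318%. The BMSC-C shares were 0.129%, 0.0978% and 0.106%, again without overlap. The closeness of the treated libraries therefore depends on the size factors, among them that of replicate 3. The log2 change was 2.42 (SE 0.23, 95% interval 1.86 to 2.97, limma adjusted p = 0.00181). Hsp90b1 encodes GRP94, the Hsp90 chaperone of the ER. Its counts were 15214, 10792 and 10456 in BMSC-C and 46683, 39326 and 42470 in BMSC-CT, again without overlap. This was a log2 change of 1.83 (SE 0.24, limma adjusted p = 0.00525). Relative to Hspa5, Hsp90b1 was lower in every treated library: per kilobase of gene length, the ratio of Hsp90b1 to Hspa5 was 0.651, 0.614 and 0.521 in BMSC-C and 0.414, 0.389 and 0.385 in BMSC-CT. With 3 libraries against 3, an exact two-sided permutation test of such a ratio cannot give a p below 0.1.

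Calr and Canx encode calreticulin and calnexin, a soluble and a membrane-bound chaperone that bind the sugar chains of newly made glycoproteins. Calr had 20659, 14936 and 19142 normalized counts in BMSC-C and 69948, 74839 and 128625 in BMSC-CT. The groups did not overlap, and replicate 3 was the highest of the treated libraries. As a share of all reads the treated libraries were close together, at 0.437%, 0.433% and 0.462%. The height of replicate 3 in normalized counts therefore depends on its size factor. The log2 change was 2.28 (SE 0.32, limma adjusted p = 0.00673). Canx had 11068, 8332 and 7188 normalized counts in BMSC-C and 16544, 13589 and 8681 in BMSC-CT. Here the groups overlapped, with treated replicate 3 inside the range of the controls. The log2 change was 0.52 (95% interval -0.23 to 1.27, limma adjusted p = 0.252), an interval that includes 0 and also a change of more than 1. The ratio of Calr to Canx per kilobase was 4.99, 4.79 and 7.12 in BMSC-C and 11.3, 14.7 and 39.6 in BMSC-CT, so the soluble partner was higher relative to the membrane-bound one in every treated library. The genes differ in length (1865 and 4986 bases), and treated replicate 3, with the highest ratio, showed the length trend given above. Its part in that ratio was not tested. The lowest possible permutation p of 0.1 holds for this ratio too.

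Pdia4 encodes a disulfide isomerase of the ER. It had 5456, 3738 and 4348 normalized counts in BMSC-C and 18496, 18132 and 14242 in BMSC-CT, without overlap. Its log2 change was 1.92 (SE 0.23, limma adjusted p = 0.0038). Sdf2l1 encodes a small lumenal protein that works in complexes with BiP and its J-domain partners. Its counts were 961, 1645 and 2159 in BMSC-C and 10744, 13124 and 27064 in BMSC-CT. This was the largest fold change of the 10 genes, 10.4-fold, and also one with wide spread within both groups (log2 3.37, SE 0.45, limma adjusted p = 0.00517). As a share of all reads the treated libraries spread less, at 0.0671%, 0.0760% and 0.0972%. Dnajb9 encodes ERdj4, a J-domain partner of BiP and a well-known target of XBP1. It had 815, 661 and 532 normalized counts in BMSC-C and 2034, 1493 and 1530 in BMSC-CT, without overlap. Its log2 change of 1.34 (SE 0.24, limma adjusted p = 0.0153) was the smallest of the 7 that passed.

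Herpud1 and Sel1l belong to ER-associated degradation, Herpud1 as a stress-induced membrane protein that brings ubiquitin ligase complexes together and Sel1l as the adaptor of the ligase HRD1. Herpud1 had 2614, 2498 and 2776 normalized counts in BMSC-C and 13770, 14292 and 18195 in BMSC-CT. The control libraries were close together and all treated libraries were far above them (log2 2.54, SE 0.20, limma adjusted p = 0.000945). Sel1l had 5664, 4841 and 4772 normalized counts in BMSC-C and 10250, 8537 and 3018 in BMSC-CT. Treated replicates 1 and 2 were above all controls, and replicate 3 was below all of them. For Sel1l the log2 change was 0.34 (95% interval -0.77 to 1.45, limma adjusted p = 0.598).

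Xbp1 encodes the transcription factor whose mRNA is the target of IRE1. It had 2148, 2400 and 2820 normalized counts in BMSC-C and 3424, 3813 and 2425 in BMSC-CT, and treated replicate 3 fell among the controls. The log2 change was 0.37 (95% interval -0.20 to 0.95, limma adjusted p = 0.278). Counts per gene do not separate the spliced from the unspliced form, so the splicing of Xbp1 was not measured. In the authors' deposited table the adjusted p was 0.241 for Canx, 0.30 for Xbp1 and 0.433 for Sel1l.

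**Figure D2:**
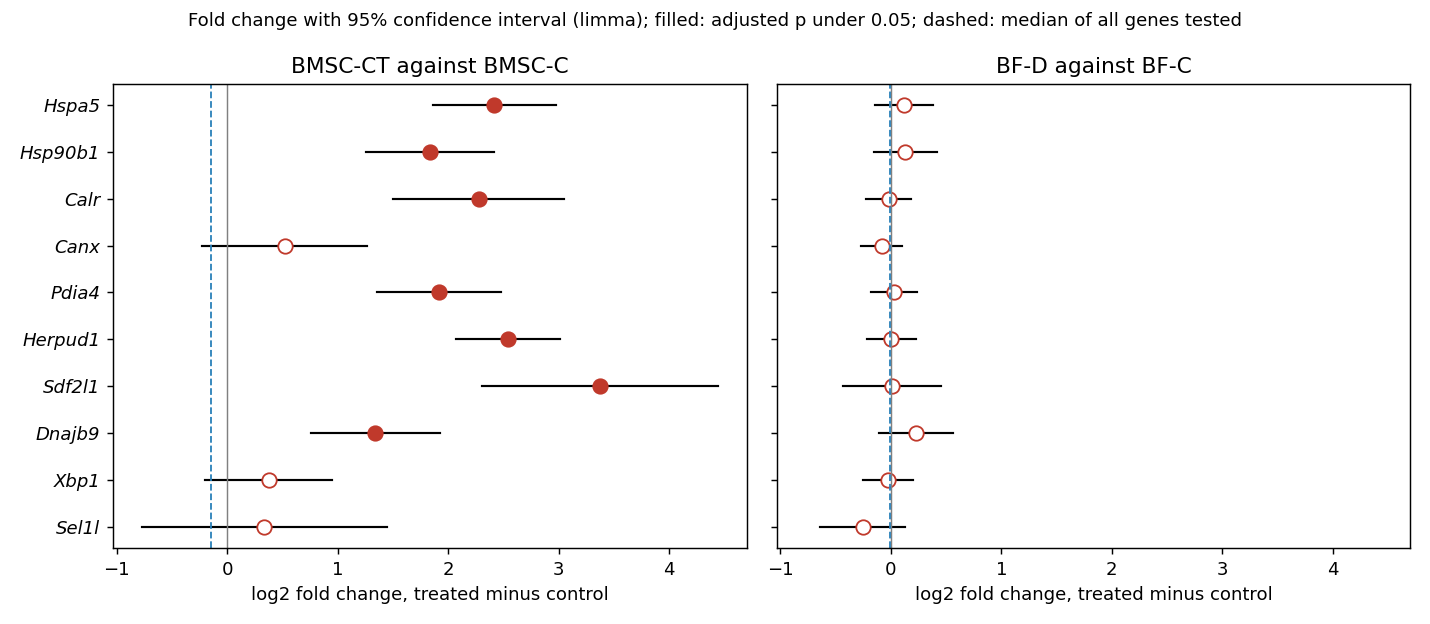
Log2 fold change (horizontal axis) of each of the 10 genes with its 95% interval from limma, for BMSC-CT against BMSC-C and for BF-D against BF-C. In the first comparison 7 genes have intervals above 0 and passed the test, from 1.34 for Dnajb9 to 3.37 for Sdf2l1, and in the second every interval includes 0.

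The 3 genes that did not pass were those in which treated replicate 3 lay in or under the control range. In that library, relative to the mean of the other BMSC-CT libraries on the log2 scale, the shortest of the 10 genes, Sdf2l1 (1064 bases), was highest at 1.19, and the longest, Canx (4986 bases) and Sel1l (6402 bases), were lowest at -0.79 and -1.63. The order between them did not follow length strictly. Xbp1 (1116 bases) stood at -0.58, Herpud1 (1842 bases) at 0.38 and Calr (1865 bases) at 0.83. The other 4 genes, of 1926 to 3195 bases, stood between -0.36 and 0.05. Without replicate 3, all 10 genes rose, against 19.5% of all tested genes. Canx then had a log2 change of 0.78 (limma adjusted p = 0.0165), Xbp1 of 0.57 (0.0189) and Sel1l of 0.88 (0.00263). With a smoothed (lowess) trend over log2 gene length removed from each library, 9 genes rose, against 12.5% of all tested genes. Xbp1 did not pass. Whether RNA quality in this library accounts for the difference was not tested.

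**Figure D3:**
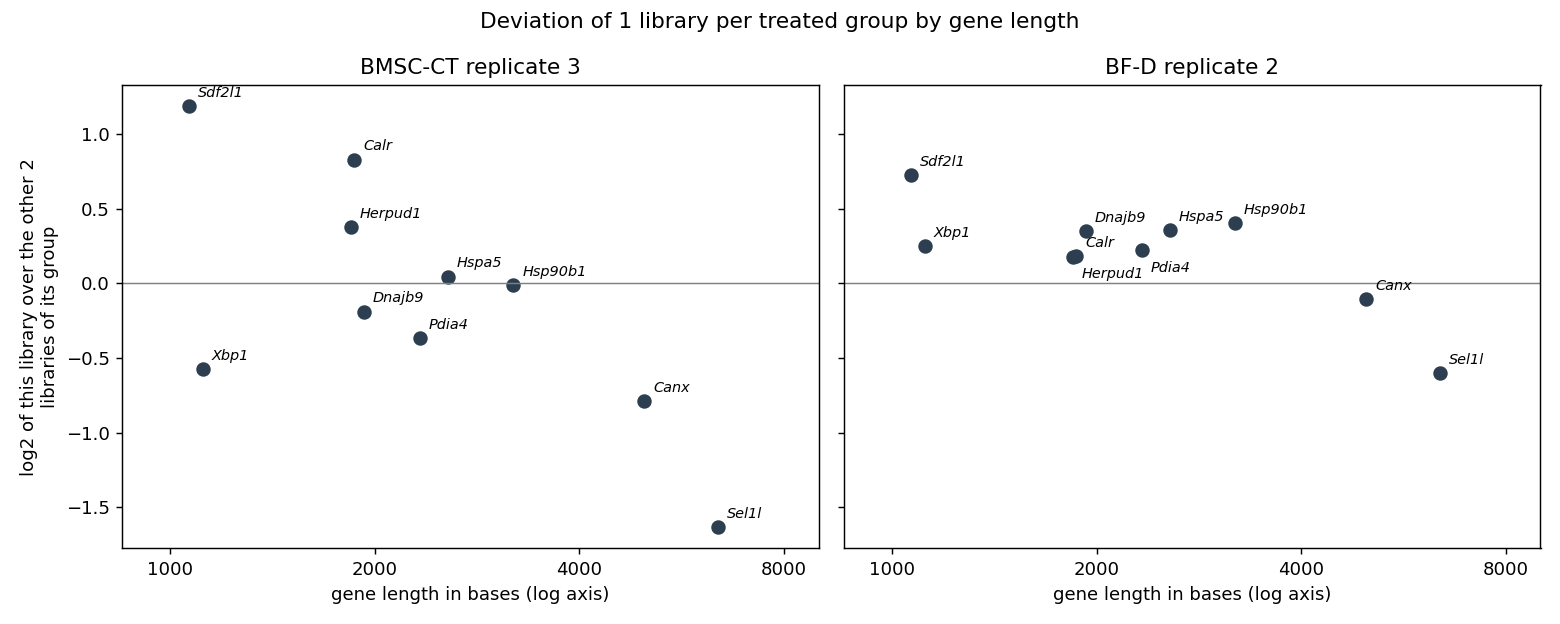
Log2 difference of 1 library from the mean of the other 2 of its group (vertical axis) against gene length in bases (horizontal axis, log scale), with 1 point for each of the 10 genes. In BMSC-CT replicate 3 (left) Sdf2l1 is at 1.19 and Sel1l at -1.63, and in BF-D replicate 2 (right) they are at 0.73 and -0.60.

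The calls of Hspa5, Pdia4, Herpud1 and Sdf2l1 held in all 18 settings tried, with log2 changes of 1.69 to 2.68, 1.50 to 2.11, 2.12 to 2.62 and 2.91 to 3.64. The other 3 did not hold in every setting. Without BMSC-C replicate 2, 4 of the 10 genes rose, against 1.48% of all tested genes: Hsp90b1 (adjusted p = 0.0502), Calr (0.0546) and Dnajb9 (0.0843) no longer passed. Dnajb9 also missed without BMSC-CT replicate 2 (0.0524), without BMSC-C replicate 3 (0.0597) and with scaling to total reads (0.124), and Hsp90b1 missed with quantile scaling (0.0978). All 7 kept a positive change in every setting. Every treated library was above every control for these 7 genes, a pattern seen in 23.3% of all tested genes, with the opposite pattern in 28.9%.

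Markers of cell types also differed between the BMSC groups. Of the 8 mesenchymal stromal markers, 3 fell in BMSC-CT, Pdgfra (log2 -3.14, limma adjusted p = 0.00689), Thy1 (-1.31, 0.0103) and Lum (-0.97, 0.0368), and 2 rose, Col1a1 (2.39, 0.002) and Eng (1.23, 0.0153). Over all tested genes 7.7% rose and 10.9% fell. Pdgfra and Col1a1 passed in all 18 settings. Thy1 and Eng missed without BMSC-CT replicate 2 and without BMSC-C replicate 1 or 2, Thy1 also without BMSC-C replicate 3, and Lum missed in 6 settings: without any library but BMSC-CT replicate 3, and with the replicate block (0.0539 to 0.148 over the first 5, 0.0542 with the block). All 8 macrophage markers were detected in both BMSC groups, and their sum was 0.779% to 0.933% of reads in BMSC-C and 0.945% to 1.27% in BMSC-CT. Lyz2, Cd68 and Csf1r rose and Adgre1 fell. Csf1r passed in all 18 settings and Cd68 missed without BMSC-C replicate 1 or 2 (0.0717 and 0.0746). Lyz2 and Adgre1 missed without BMSC-CT replicate 2 and without any 1 of the BMSC-C libraries, and in addition Lyz2 missed with quantile scaling (0.0818) and Adgre1 with the replicate block (0.0514). Markers of plasma and B cells, which are rich in ER chaperones, summed to 0.0213% to 0.0238% in BMSC-C and 0.00311% to 0.00481% in BMSC-CT, nearly all of it Sdc1, which stromal and epithelial cells also express. Cd79a had 0 reads in all BMSC-C libraries, and 4 of the 8 plasma and B cell markers were in the table. In bulk RNA a change in the mix of cells and a change in RNA per cell cannot be told apart, and the part of stromal or macrophage RNA in the changes of the 10 genes was not tested.

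In the BF cells, docetaxel was not accompanied by a detectable change in any of the 10 genes. By limma, 0 rose and 0 fell, and 0 had an unadjusted p under 0.05 in either direction. The same counts, 0 and 0, came from edgeR and from DESeq2 on the recovered reads, also at an unadjusted p under 0.05. Across all genes 0.0117% were called by limma, 0.0117% by edgeR and 0.362% by DESeq2, so that calls were rare in this comparison in general. At an unadjusted p under 0.05, limma had 556 of all 17076 tested genes higher and 502 lower. The groups overlapped for all 10 genes, where 7.78% of all tested genes had every docetaxel library above every control and 9.04% below. The 10 genes had a median log2 change of 0.01, against 0.00 over all tested genes.

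Values in the BF-C libraries lay close together, and most of the spread was in BF-D replicate 2. Hspa5 had 15942, 15887 and 16052 normalized counts in BF-C and 16486, 20457 and 15449 in BF-D (log2 0.12, 95% interval -0.15 to 0.38, limma adjusted p = 0.74). Hsp90b1 had 12095, 12360 and 12705 in BF-C and 12756, 16320 and 11954 in BF-D. In both, replicate 2 was the only docetaxel library well above the controls. Sdf2l1, with 929, 984 and 971 in BF-C and 796, 1356 and 840 in BF-D, had treated libraries on both sides of the controls. Sel1l had 4018, 3691 and 3871 in BF-C and 3919, 2451 and 3511 in BF-D, and here replicate 2 was the lowest.

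Calr had 24121, 24995 and 24642 normalized counts in BF-C and 23425, 26432 and 23113 in BF-D, which bounds its log2 change to between -0.22 and 0.19 (95% interval). Herpud1, which had the smallest adjusted p of the 10 genes in BMSC-CT, had 2287, 2055 and 2017 in BF-C and 2040, 2304 and 2029 in BF-D (log2 0.00, 95% interval -0.22 to 0.22). For both genes the interval leaves room for only small changes. Over the 10 genes the widest intervals reached down to -0.64, for Sel1l, and up to 0.56, for Dnajb9, and changes beyond these bounds lie outside the intervals. The adjusted p ran from 0.706 to 0.992.

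Without BF-D replicate 2, still 0 of the 10 genes passed, against 1.54% of all tested genes. Sdf2l1 (log2 -0.23), Xbp1 (-0.11) and Calr (-0.08) then had an unadjusted p under 0.05, named here after their values were seen, and Hspa5 stood at 0.00. At that unadjusted threshold, 898 of all 17139 tested genes were higher and 1095 were lower. The macrophage markers summed to 0.00401% to 0.00432% of reads in BF-C and 0.00553% to 0.00618% in BF-D. Whether the effect on the 10 genes differed between the BMSC and BF comparisons was not tested.

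Levels in RPKM, reads per kilobase of gene length scaled to each library's depth, put the members in order within a group. Calr was the most abundant in all 4 groups, followed by Hspa5: Calr stood at 663 ± 103 RPKM (SD, n = 3) in BMSC-C and 2381 ± 83.9 in BMSC-CT. In the BF cells it stood at 786 ± 15.3 without docetaxel and 790 ± 58.0 with it. Hspa5 stood at 432 ± 62.4, 1760 ± 487, 371 ± 3.85 and 413 ± 61.5 RPKM in the same order of groups. Dnajb9 had the lowest mean in every group, at 23.7 ± 5.45, 46.5 ± 18.8, 15.2 ± 0.941 and 18.3 ± 3.09 RPKM. These levels were set side by side across tables with no test.

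Sdf2l1 moved most in the order. In BMSC-C it stood at 101 ± 36.0 RPKM, within a run of genes from Xbp1 (149 ± 16.9) through Pdia4 and Canx to Herpud1 (96.8 ± 2.49) in which neighbours overlapped. In BMSC-CT it stood at 753 ± 145 RPKM, beside Hsp90b1 (701 ± 218), with which it overlapped. The overlapping neighbours below them were Herpud1 with Pdia4, and a run from Xbp1 through Canx and Sel1l to Dnajb9. In BF-C the 10 genes were fully separated, from Calr down through Hspa5, Hsp90b1 (231 ± 6.88), Pdia4 (158 ± 1.99), Canx (146 ± 3.74), Xbp1 (115 ± 3.70), Herpud1 (68.6 ± 4.49), Sdf2l1 (53.9 ± 1.72) and Sel1l (35.9 ± 1.53) to Dnajb9. BF-D had the same order, with overlap only between Herpud1 (69.8 ± 5.00) and Sdf2l1 (56.7 ± 17.6). Together the 10 genes made up 0.492% ± 0.0696 of a BMSC-C library and 1.51% ± 0.284 of a BMSC-CT library. They made up 0.482% ± 0.00695 of a BF-C library and 0.499% ± 0.0415 of a BF-D library.

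**Figure D4:**
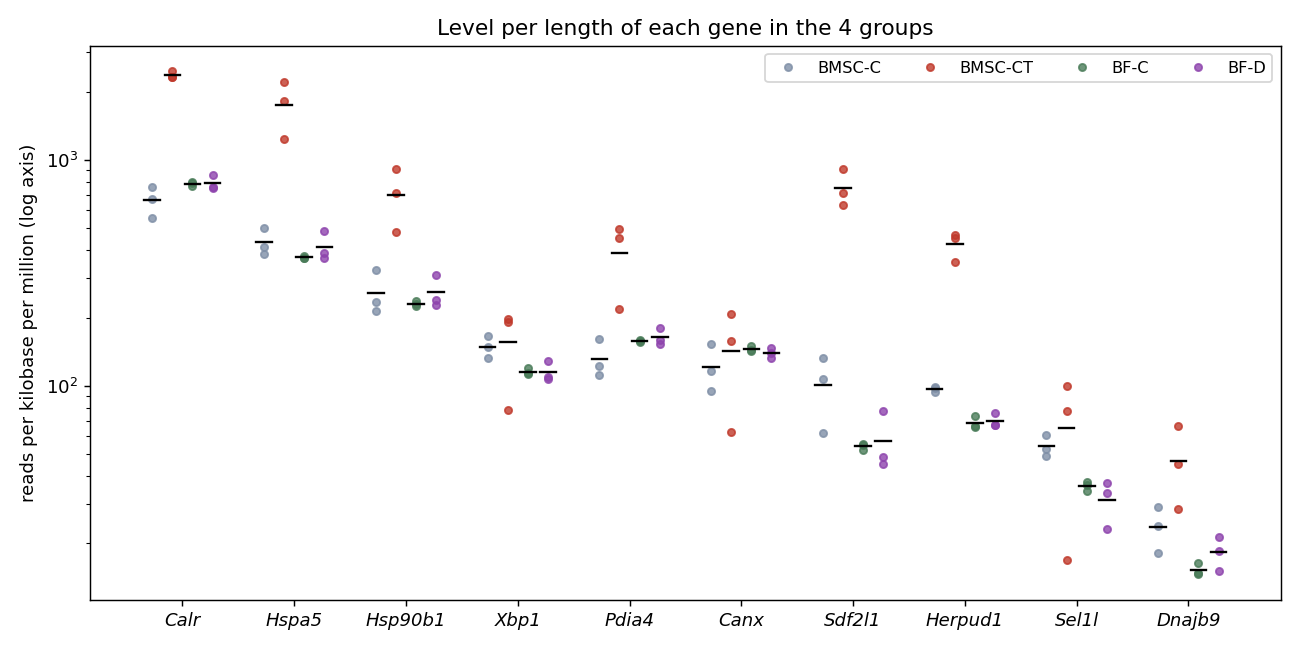
Level of each of the 10 genes in RPKM (vertical axis, log scale) by group, with a point per library and a bar at the mean. Calr and Hspa5 are the highest in each group, at 2381 and 1760 in BMSC-CT, and Dnajb9 is the lowest.

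Other genes of the same response were read from lists grouped by function. These lists were chosen with earlier results of these data known, so their counts are a description. Among 20 further ER chaperones and folding enzymes tested in BMSC-CT, 11 rose and 1 fell, against 7.7% and 10.9% of all tested genes. Their median log2 change was 1.52. The smallest adjusted p belonged to Creld2, a stress-induced secreted factor, which had 563 ± 78.4 normalized counts in BMSC-C and 6116 ± 1830 in BMSC-CT (log2 3.41, limma adjusted p = 0.000919). It was followed by the BiP partners Dnajb11 (log2 2.30) and Dnajc3 (2.18) and by Hyou1 (2.48), the exchange factor of BiP. The gene that fell, named after its value was seen, was Ero1a (listed there as Ero1l), an oxidase that drives disulfide formation, from 1554 ± 78.5 to 736 ± 144 (log2 -1.10, limma adjusted p = 0.0191). Creld2, Dnajb11, Dnajc3 and Hyou1 passed in all 18 settings. The count that rose was 18 without BMSC-CT replicate 3 (against 19.5% of all genes) and 17 by DESeq2 (against 14.5%), but 5 without BMSC-C replicate 2 (against 1.48%) and 6 without either of the other BMSC-C libraries. Ero1a was not called without any 1 of the BMSC-C libraries or without BMSC-CT replicate 2 (adjusted p 0.0681 to 0.105).

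Of 13 further genes of ER-associated degradation, 5 rose and 0 fell, against 7.7% and 10.9% of all tested genes. Their median log2 change was 0.74. The 5 that rose included Edem2 and Os9, which act on misfolded glycoproteins, and Syvn1, the ligase HRD1 itself. The others were Derl1 and Derl2, membrane proteins of the exit channel. Syvn1 had 1049 ± 101 normalized counts in BMSC-C and 2391 ± 147 in BMSC-CT (log2 1.19, limma adjusted p = 0.0083), while its adaptor Sel1l did not pass. Os9 rose by 1.62 on the log2 scale (limma adjusted p = 0.00676), and Edem2 had a log2 change of 1.84. Edem2 passed in all 18 settings, Os9 missed without BMSC-C replicate 2 (0.0541), and Syvn1 missed there (0.0656) and with scaling to total reads (0.0796). Derl1 missed without BMSC-C replicate 1 or 2, and Derl2 without any 1 of the BMSC-C libraries. The count that rose was 7 without BMSC-CT replicate 3, where 19.5% of all tested genes rose, and at its lowest 1 without BMSC-C replicate 2, where 1.48% did.

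Among the sensors and their processing enzymes 1 of 9 rose and 0 fell, against 7.7% and 10.9% of all tested genes. Their median log2 change was 0.05. The gene that rose was Atf6b, from 2495 ± 256 to 4449 ± 732 normalized counts (log2 0.83, limma adjusted p = 0.0381), and it missed without BMSC-CT replicate 2, without any 1 of the BMSC-C libraries and with scaling to total reads or quantile scaling (0.0868 to 0.187). Mbtps2, the protease that completes ATF6 release, had a log2 change of -1.24 (limma adjusted p = 0.0516), and it passed as lower in 7 of the 18 settings. Creb3 and Creb3l1, membrane-bound factors related to ATF6, had log2 changes of 0.38 and 0.35 (0.161 and 0.176). The sensor genes themselves, given for their role, did not pass: Ern1, which encodes IRE1, had a log2 change of 0.05 (95% interval -1.06 to 1.17), Atf6 of -0.30 (-1.94 to 1.35) and Eif2ak3, which encodes PERK, of 0.40 (-0.42 to 1.23). These intervals are wide. With the length trend removed, Ern1 (limma adjusted p = 0.0224) and Eif2ak3 (0.0121) passed as higher, where 12.5% of all tested genes rose. Without BMSC-CT replicate 3, 5 of the 9 rose and 1 fell, where 19.5% of all tested genes rose, and the calls gained were Ern1 (adjusted p = 0.0133), Eif2ak3 (0.00953), Creb3l2 (0.0458) and Atf6 as higher and Mbtps2 (0.0106) as lower.

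In the PERK-ATF4 arm, the branch that acts through translation, 5 of 8 genes rose and 2 fell, against 7.7% and 10.9% of all genes. Ddit3, which encodes the factor CHOP, rose from 1179 ± 99.5 to 34815 ± 31585 normalized counts (log2 4.52, SE 0.57, limma adjusted p = 0.00449). The treated libraries had 16818, 16341 and 71285, so the wide spread came from replicate 3, and all lay above the controls. Trib3, a pseudokinase induced with it, had a log2 change of 2.26 and Ppp1r15a, which encodes GADD34, of 1.29. Asns, which makes asparagine and is a classic ATF4 target, fell by 1.64 on the log2 scale, with 5035 ± 487 normalized counts in BMSC-C and 1612 ± 182 in BMSC-CT (limma adjusted p = 0.0031). Ddit3, Trib3 and Asns passed in all 18 settings, and Ppp1r15a missed without any 1 of the BMSC-C libraries. The remaining calls, named after their values were seen, were Atf3 and Sesn2, which rose, and Chac1, which fell. Each was lost without BMSC-CT replicate 2 and without any 1 of the BMSC-C libraries, Sesn2 in 9 settings in all. The counts so went down to 2 that rose and 1 that fell, as without BMSC-C replicate 2. There 249 of all 16768 tested genes rose and 487 fell.

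Heat shock genes of the cytosol served as a list outside the ER, with 2 of 9 tested genes that rose and 1 that fell. The shares of all tested genes were 7.7% and 10.9%. Hsph1, a cytosolic Hsp110 chaperone, fell from 5957 ± 460 to 1646 ± 319 normalized counts (log2 -1.87, limma adjusted p = 0.00316) and passed in all 18 settings. Bag3 (log2 0.89) and Hsf1 (0.78) rose, and both missed without BMSC-CT replicate 2, without any 1 of the BMSC-C libraries and with scaling to total reads. Hsp90aa1 had a log2 change of -1.58 (limma adjusted p = 0.0703). Without BMSC-CT replicate 3, 3 rose and 3 fell, where 3269 of all 16742 tested genes rose and 3935 fell. The lists were not tested against each other.

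**Figure D5:**
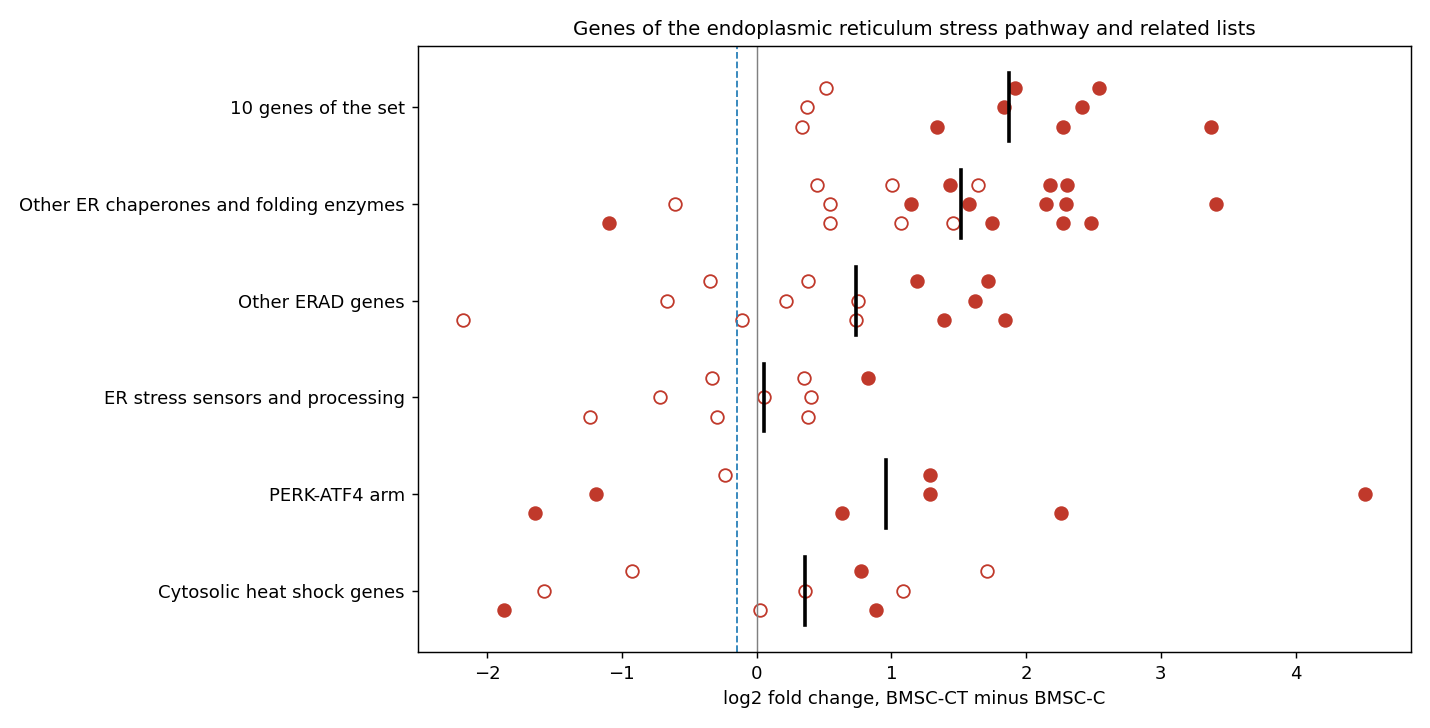
Log2 fold change of BMSC-CT against BMSC-C (horizontal axis) for every tested gene in the 10-gene set and in each of 5 related lists, with filled points for genes that passed the test, a bar at each list's median and a dashed line at the median of all genes, -0.15. The median is 1.88 for the 10 genes, 1.52 for other ER chaperones and 0.05 for the sensors.

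Under docetaxel, 0 genes of these 5 lists rose or fell by limma, by edgeR or by DESeq2. At an unadjusted p under 0.05, limma gave 1 lower sensor gene, 1 lower chaperone gene, 0 degradation genes, 1 higher gene of the PERK-ATF4 arm and 2 higher heat shock genes. The lower ones were Creb3l1 (log2 -0.44, limma adjusted p = 0.517) and Ero1a (-0.24, 0.706), and the higher ones Atf3 (0.70, 0.706), Hspa8 (0.83, 0.706) and Hspa1b (0.50, 0.706). Hspa8 and Hspa1b have near-identical copies, so their counts are uncertain. Without BF-D replicate 2, Creb3l1 (limma adjusted p = 0.00487) and the collagen chaperone Serpinh1 (0.0131) passed as lower, where 1.54% of all tested genes were called.

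Genes outside the set whose ERSE or ERSE-II letters matched were read in the same way. Of the 16 other genes with ERSE, 10 were tested in BMSC-CT, and 3 rose, where 7.7% of all tested genes rose and 10.9% fell. The 3 were Creld2, Dnajc3 and Zfand2a (log2 1.46, limma adjusted p = 0.00822). Among the 5 members with ERSE, Hspa5, Hsp90b1 and Calr rose while Canx and Xbp1 did not pass, and of the 4 members with neither motif Pdia4, Sdf2l1 and Dnajb9 rose. Of the 16 other genes with ERSE-II, 10 were tested, Dnajb11 and Hyou1 rose, and Cdc27 fell (log2 -2.22, limma adjusted p = 0.0369). Creld2, Dnajc3, Dnajb11 and Hyou1 also belong to the list of other ER chaperones above, so they are counted in both places. Under docetaxel 0 of the 14 tested ERSE genes and 0 of the 10 tested ERSE-II genes were called by limma.

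Across the 12 libraries, the genes whose log2(RPM + 1), with RPM the reads scaled to library depth, was most like that of Hspa5 were Rpn1 (Pearson 0.993), a subunit of the enzyme that attaches sugar chains in the ER, Rab27a (0.989), Cd276 (0.985), Lamp1 (0.984) and Tmem140 (0.982), of 8719 genes compared. Rpn1 had 356 ± 21.0 RPM in BMSC-C and 712 ± 116 in BMSC-CT, and 347 ± 6.10 and 369 ± 44.0 in BF cells without and with docetaxel. Among the 10 genes, Hsp90b1 (0.985) ranked 4 and Herpud1 (0.980) ranked 9, while Xbp1 (0.402), Sel1l (0.398) and Canx (0.0855) ranked 2583 or lower. These values describe 12 libraries in which the 3 BMSC-CT libraries stand apart from the other 9, and they share each library's depth.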

How the data were processed

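The members and gene lists were chosen with earlier results of these data known. The submitters' processing notes name Bowtie (0.12.2) together with mm8, which is a build of the mouse genome, but the deposited gene IDs are rat Ensembl IDs. The build of the deposited coordinates is therefore not given, and none are printed. Each deposited signal value is a whole number of reads over the size factor of its library, per the file headers and the values. The reads could be recovered, with 100% of values whole within 0.01. The authors' deposited log2 fold changes and p-values were used only where named, and gene lengths (other) are as deposited. All columns of values had a sample (0 without).

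Groups were compared with limma 3.58.1 in R 4.3.3, using moderated variances with a mean trend, on log2(normalized count + 1), for genes with a mean of at least 1, within each table, with Benjamini-Hochberg adjustment over all its genes. The logarithm with 1 added understates changes of low genes. edgeR 4.0.16 and DESeq2 1.42.0 on recovered reads, other pseudocounts, filters and scalings, removal of a length trend, a replicate block and leaving out each library were alternatives. The 18 settings are these 17 and the main one. The scripts were tested on simulated data. Genes named outside the members were up to 4 per list and comparison with the smallest adjusted p, the 5 most like Hspa5, and the defining markers. IDs with no symbol took 0.641% to 1.55% of reads. Depth was 15580310 to 19870047 reads a library.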

Additional observations from a re-analysis of the deposited data

How the results depend on the processing

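The number of genes called in BMSC-CT was 3134 (1295 rose, 1839 fell) and became 5397 with DESeq2 (2695 and 2702), and leaving out 1 library at a time gave 736 (without BMSC-C replicate 2) to 7204 (without BMSC-CT replicate 3). The number of the 10 genes that rose, 7, ranged from 4 to 10 in the same way. In BF-D, 2 genes were called. That count was 0 with a mean of at least 10, 70 with DESeq2, 11 with the length trend removed, and 0 to 264 when 1 library was left out, while 0 of the 10 genes passed in any of the 18 settings. The median log2 change of all genes in BMSC-CT was -0.15, and -0.53 with scaling to total reads and 0.08 with quantile scaling. Calls split into 787 that rose and 1967 that fell with total reads, 1929 and 1794 with quantile scaling, and 2103 and 1804 with the length trend removed. The median of the 10 genes lay above that of all genes by 2.02, 1.99, 1.30 and 2.15 in these 4 scalings, main first. The labels do not say whether equal replicate numbers share a source. Same-numbered BMSC libraries deviated together with correlations of 0.28, -0.03 and 0.26, and differently numbered ones with -0.33 to 0.14. In BF the same-numbered values were 0.01, 0.01 and -0.02, against -0.04 to 0.04. Deviations within a group sum to 0, so these values are not independent and do not settle whether the samples were paired. With a replicate block 3003 genes were called in BMSC-CT and 0 in BF-D by limma, and 7 of the 10 genes rose and 0 passed in BF-D. Depth did not limit the 10 genes, which had at least 442 reads in every library.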
